A study of Mus musculus with 18 samples.

Results

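The regions described here are stretches of the mouse genome with a peak of DNA methylation in most heart libraries taken at 24 h or 72 h after myocardial infarction (MI). Few of the other libraries, from sham mice or taken earlier after MI, had a peak there. They were found by merging the peaks of all 18 deposited lists wherever peaks shared at least 1 base. An autosomal merged region was kept when at least 5 of the 6 libraries at 24 h and 72 h (the late libraries) and at most 3 of the 12 other libraries had a peak in it. The rule selected 783 of 148111 autosomal merged regions, which is 0.529%. These are called late-gained regions. The members were thus selected on the presence of a peak in these same 18 libraries. The contrast of late with other libraries is fixed by that choice, so their number carries no test.

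Each library came from the myocardial tissue of 1 of 18 male C57BL/6JR mice, 12 weeks of age. In 15 mice the left anterior descending coronary artery was tied off, and tissue was taken 10 min, 1 h or 6 h later (early MI) or else at 24 h or 72 h (3 mice for each time; the groups are called MI 10 min to MI 72 h). In the 3 sham mice, the controls, a suture was passed but the artery was not tied. All mice were anaesthetized and operated on, so surgery was common to every group. The labels name cardiomyocytes as the cell type and describe no step that isolates them. The files hold methylation peaks and no expression, so the cell type could not be checked against its markers. In such bulk tissue, a change in methylation within a cell and a change in the mix of cells cannot be told apart.

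DNA methylation in mammals is the addition of a methyl group to cytosine, almost always where a C is followed by a G (a CpG). Most CpGs of the genome are methylated, and dense clusters of CpGs at gene starts usually are not. Methylation of a promoter usually goes with a silent gene, whereas the bodies of active genes are commonly methylated. In methylated DNA immunoprecipitation sequencing (MeDIP-seq), an antibody against methylated cytosine pulls down sheared DNA, and the fragments are sequenced. A peak marks a place where such fragments pile up. Its score, the authors' own value for each peak, was at least 50 in every list and is no percentage of methylated molecules. After an infarct, heart muscle cells die early, white blood cells enter over the following days, and fibroblasts then build a scar.

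A few late-gained regions lay on the start of a gene, and the letters of those starts show what the antibody could bind there. Of 31396 autosomal promoter windows in the RefSeq table (build GRCm38.p6, from 250 bases before a gene's start to 50 bases after it), 16 windows of 13 genes touched a late-gained region. Of these, 10 windows lay wholly inside one. Below are the sequences of 6 of them, 5′ to 3′ on the gene's own strand, with every CpG in capitals: 1 window for each of 4 protein-coding genes and 2 long noncoding RNA genes, all of them wholly inside a region.
Hspb3 (chr13:113663627-113663926, minus strand): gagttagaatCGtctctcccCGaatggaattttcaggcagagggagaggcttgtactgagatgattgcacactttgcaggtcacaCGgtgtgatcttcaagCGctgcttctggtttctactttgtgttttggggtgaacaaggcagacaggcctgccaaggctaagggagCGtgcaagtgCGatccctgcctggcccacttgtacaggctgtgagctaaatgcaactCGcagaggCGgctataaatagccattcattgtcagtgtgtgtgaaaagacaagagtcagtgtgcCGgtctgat
Mov10l1 (chr15:88982744-88983043, plus strand): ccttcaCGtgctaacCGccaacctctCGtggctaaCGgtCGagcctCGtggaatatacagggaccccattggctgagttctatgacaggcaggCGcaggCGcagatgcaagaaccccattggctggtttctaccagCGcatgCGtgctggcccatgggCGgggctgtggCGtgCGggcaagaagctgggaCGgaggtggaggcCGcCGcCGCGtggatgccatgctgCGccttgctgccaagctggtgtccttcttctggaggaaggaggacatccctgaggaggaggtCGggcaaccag
1700093K21Rik (chr11:23519652-23519951, minus strand): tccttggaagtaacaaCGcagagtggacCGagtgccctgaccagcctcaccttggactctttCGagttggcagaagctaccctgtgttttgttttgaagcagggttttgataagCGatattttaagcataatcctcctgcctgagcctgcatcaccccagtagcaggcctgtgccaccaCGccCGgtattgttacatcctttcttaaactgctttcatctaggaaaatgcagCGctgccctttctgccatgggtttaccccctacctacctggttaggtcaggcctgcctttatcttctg
7420426K07Rik (chr9:98902869-98903168, plus strand): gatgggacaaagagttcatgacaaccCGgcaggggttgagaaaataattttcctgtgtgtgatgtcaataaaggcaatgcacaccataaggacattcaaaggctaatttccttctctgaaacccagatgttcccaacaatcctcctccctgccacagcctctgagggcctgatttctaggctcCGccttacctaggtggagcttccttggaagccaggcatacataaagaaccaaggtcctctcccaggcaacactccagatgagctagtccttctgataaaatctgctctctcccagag
Gm41042 (chr13:100996934-100997233, plus strand): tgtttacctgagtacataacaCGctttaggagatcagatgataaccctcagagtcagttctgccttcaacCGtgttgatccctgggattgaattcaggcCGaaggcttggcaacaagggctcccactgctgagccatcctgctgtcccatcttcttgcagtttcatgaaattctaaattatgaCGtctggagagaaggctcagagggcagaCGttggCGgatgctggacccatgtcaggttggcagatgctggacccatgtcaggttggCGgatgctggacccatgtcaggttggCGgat
Gm38934 (chr11:83810991-83811290, minus strand): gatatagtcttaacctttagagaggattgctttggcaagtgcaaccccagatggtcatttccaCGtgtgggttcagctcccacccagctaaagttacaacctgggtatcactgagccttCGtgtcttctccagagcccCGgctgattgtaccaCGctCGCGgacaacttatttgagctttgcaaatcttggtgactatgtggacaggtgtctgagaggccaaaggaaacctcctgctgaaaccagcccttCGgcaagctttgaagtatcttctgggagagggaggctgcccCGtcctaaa
The 6 windows held very different numbers of CpGs. Mov10l1 had 20, Hspb3 had 9, Gm41042 and Gm38934 had 8 each, 1700093K21Rik had 7 and 7420426K07Rik had 2. Other windows of 1700093K21Rik, not printed, touched the same region and held 1 CpG each.

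Over all 16 windows the median was 7.5 CpGs, with a range from 1 to 20. All autosomal promoter windows had a median of 7, and the 2826 windows touched by any merged region had a median of 6. At least 10 CpGs stood in 3 of the 16 windows (18.8%), against 44.0% of all windows and 22.5% of those touched by any merged region. CpG-dense starts were thus a smaller share under regions of either kind than among all starts. These counts are a description and were not tested.

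Most late-gained regions met the rule at its limit. A peak in all 6 late libraries was found in 116 of them, and 667 had a peak in 5. Only 41 had a peak in 0 of the 12 other libraries, 95 in 1, 197 in 2 and 450 in 3. The most frequent combination, 5 late and 3 other libraries, held 378 regions. Just outside the rule lay 586 regions with at least 5 late and 4 other libraries, and 2135 regions with 4 late and at most 3 other libraries. The opposite kind of region, with a peak in at most 1 late and at least 9 other libraries, numbered 149 (0.101% of autosomal regions). Regions of the opposite kind had a peak in a median of 10 libraries, and late-gained regions in a median of 8. The counts are thus drawn from different pools of regions and do not compare gains with losses.

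**Figure D1:**
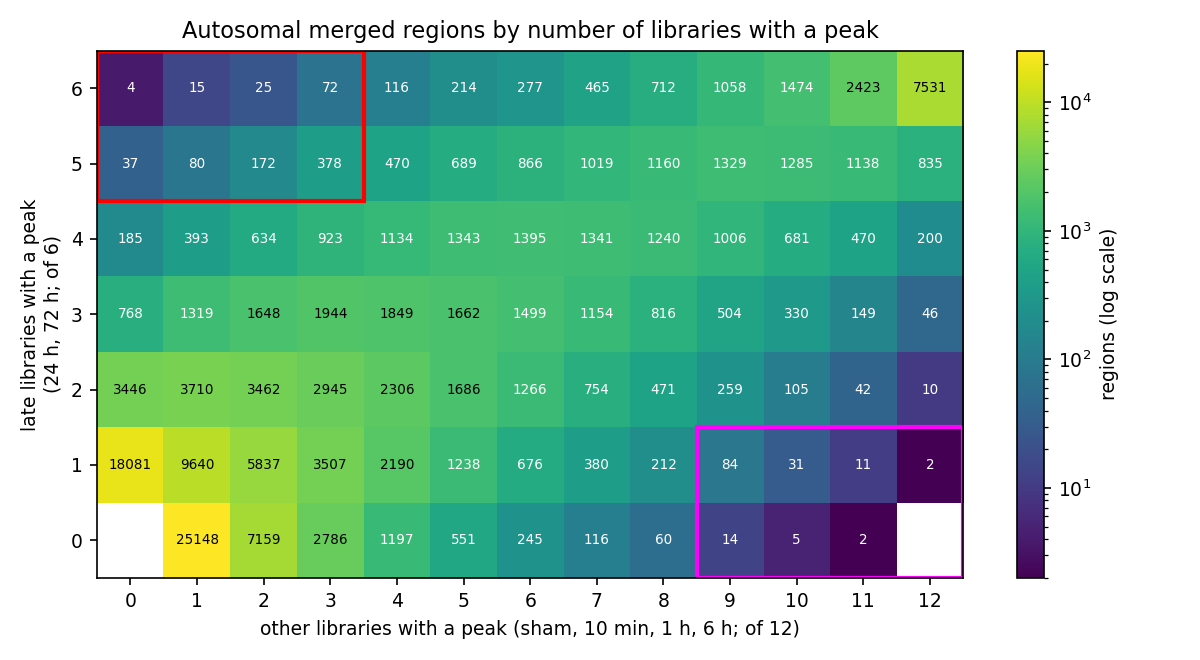
Number of autosomal merged regions for each combination of late libraries with a peak (vertical axis, of 6) and other libraries with a peak (horizontal axis, of 12), coloured on a log scale. The red frame holds the 783 late-gained regions and the magenta frame the 149 of the opposite kind; most late-gained regions sit along the edge of the frame at 3 other libraries.

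The lists of the late libraries tended to be longer. Late libraries held 50847 ± 5860 autosomal peaks (SD, n = 6) and the others 44460 ± 6638 (SD, n = 12), a difference of 6387 peaks (exact permutation p = 0.0627, two-sided). When the 34255 top-scoring peaks were taken from every library, 294 regions met the rule and 215 were of the opposite kind, in place of 783 and 149. This setting also moved the lowest score kept in each library, and the part of either in the counts was not tested. Most of the selected regions were then different ones. Of the 783 late-gained regions, 99 (12.6%) still met the rule, and these made up 33.7% of the 294. With a score of at least 60 in place of 50, 572 regions met the rule, of which 172 were among the 783 (30.1% of the 572 and 22.0% of the 783). Peaks that covered at least 50% of a region were found by the same rule in 655 regions, and 529 of these were late-gained regions. A peak in all 6 late and at most 2 other libraries was found in 44 regions, against 7 of the matching opposite kind (0 late and at least 10 other libraries).

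**Figure D2:**
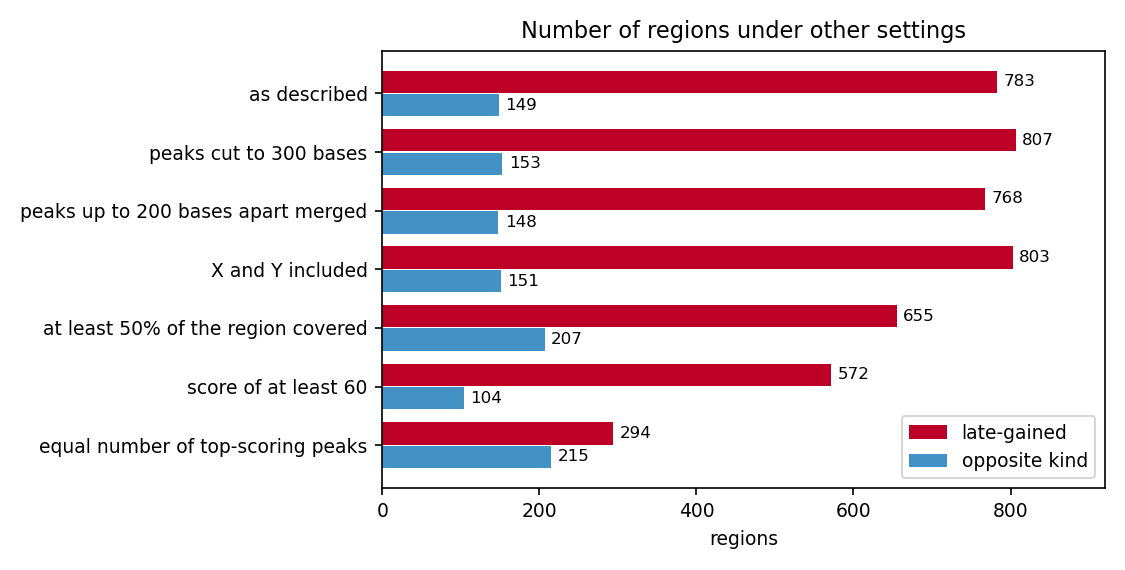
Number of late-gained regions (red) and of regions of the opposite kind (blue) as described and under 6 other settings, on a linear axis from 0. With an equal number of top-scoring peaks the bars are 294 and 215, against 783 and 149 as described. Red and blue bars come from regions held by different total numbers of libraries, so they do not compare gains with losses.

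The peaks that made up these regions were weak beside all autosomal peaks. The latter include peaks in 7531 regions that all 18 libraries held. Scores at other regions held by as many libraries as the late-gained ones were not compared, so weakness is not shown to be particular to late-gained regions. In late libraries the median score of peaks in late-gained regions ran from 63.5 to 73.6, against 69.7 to 75.9 for all autosomal peaks of the same libraries. In each of the 18 libraries the median in late-gained regions was the lower of these values, with differences between -9.82 and -2.3 score units. Scores below 60 were held by 31.9% ± 6.19 of their peaks in late libraries (SD, n = 6), against 26.1% ± 2.84 of all autosomal peaks there. The mean score over the late peaks of a region had a median of 69.7 and ran from 53.6 to 106 over the 783 regions. A large part of the late peaks thus lay close to the lowest score of 50.

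The rule caps the peaks in the 12 other libraries as a whole, so their values by group are given as a description with no test. Among sham libraries, 166, 302 and 128 of the 783 regions had a peak in replicates 1, 2 and 3. The numbers were 214, 70 and 148 at MI 10 min, then 155, 125 and 134 at MI 1 h, and 115, 189 and 93 at MI 6 h. The highest of the 12 was sham replicate 2 and the lowest was MI 10 min replicate 2, and the ranges of all 4 groups overlapped. As a percentage of the regions, sham had 25.4% ± 11.7 (SD, n = 3) and the 9 early MI libraries 17.6% ± 5.73 (SD, n = 9). The difference was -7.73 percentage points. When regions were selected again with 1 sham library left out, the cap of 3 other libraries was kept and the sets were larger. Over these sets the difference was -1.40 without sham replicate 2 (1110 regions) and -13.0 without sham replicate 3 (955 regions). Over the 783 regions, the means were 18.4% ± 9.21 at MI 10 min, 17.6% ± 1.97 at MI 1 h and 16.9% ± 6.42 at MI 6 h (SD, n = 3 each). Regions that had a peak in more than 3 of these 12 libraries had been left out by the rule, so these means cannot show when a gain began.

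Libraries with longer lists tended to have a peak in more of the regions. The shortest of the 12 lists, MI 6 h replicate 3 with 33354 autosomal peaks and MI 10 min replicate 2 with 36044, had 11.9% and 8.94% of them. The longest, sham replicate 2 with 58451 peaks, had 38.6%. Per 1000 autosomal peaks, sham had 3.86 ± 1.16 late-gained regions with a peak (SD, n = 3) and early MI 3.17 ± 0.677 (SD, n = 9). The late libraries stood apart from these by construction: MI 24 h replicate 1 had 45816 autosomal peaks and 83.7% of the regions, while MI 6 h replicate 2, with 49086 peaks, had 24.1%.

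**Figure D3:**
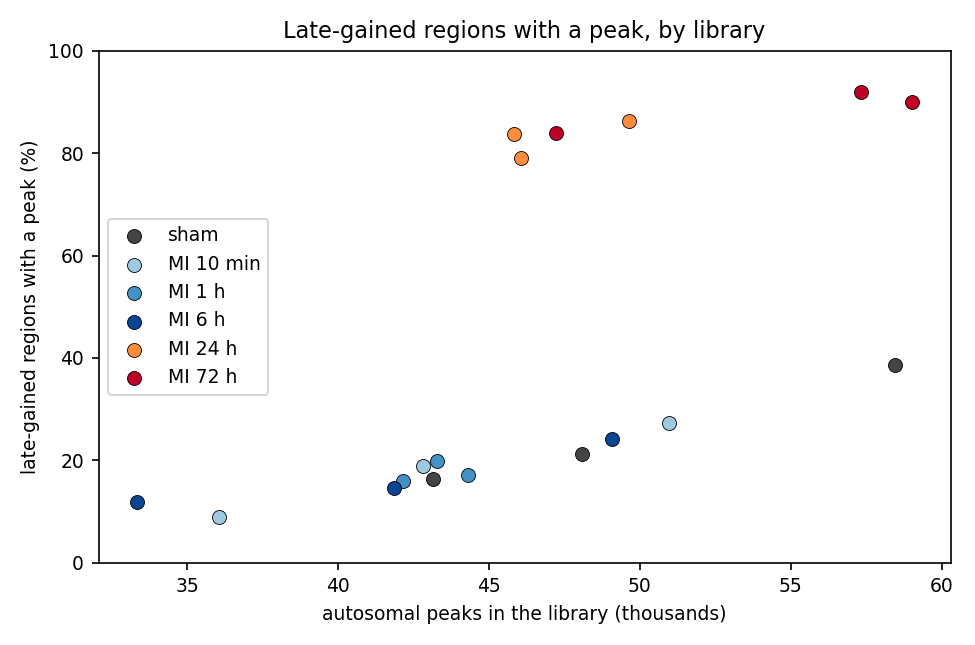
Percentage of the 783 late-gained regions with a peak (vertical axis) against the number of autosomal peaks of the library (horizontal axis, in units of 1000 peaks), 1 point for each of 18 libraries, coloured by group. The 12 sham and early libraries lie along a rising line from 8.94% to 38.6%; the 6 late libraries lie between 79.1% and 92.0%, which the rule fixes.

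The rule also limits how the late times can differ, since a region may lack a peak in at most 1 late library, and the shares at each time are again given with no test. At MI 24 h, 655, 676 and 619 of the regions had a peak in replicates 1, 2 and 3. At MI 72 h the numbers were 720, 704 and 657. MI 72 h replicate 3 lay within the MI 24 h range, so the groups overlapped. The means were 83.0% ± 3.68 and 88.6% ± 4.18 (SD, n = 3 each), a difference of 5.58 percentage points. Regions were also selected again with 1 late library left out and 1 of the rest still allowed to lack a peak, which gave larger sets. Over these sets the difference was 2.72 points without MI 72 h replicate 1 (1221 regions). It was 8.47 and 10.2 points without MI 24 h replicates 1 and 2 (1591 and 1477 regions). Without MI 72 h replicate 3 it was 9.05 points (1619 regions). Each selection changed the regions as well as the libraries, so these values do not measure how far the difference rests on 1 library. Over the 783 regions, a single late library without a peak was at MI 24 h in 399 regions and at MI 72 h in 268. The MI 72 h lists were longer on average, and per 1000 autosomal peaks the order was the other way, 13.8 ± 0.452 at MI 24 h and 12.8 ± 1.01 at MI 72 h (SD, n = 3 each).

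The comparison of peak scores between the late times was tested, although the scores are not independent of the rule. The rule used the presence of peaks, and a peak is listed only at or above the lowest score. The tested scores thus belong to peaks that the rule had selected, cut off at that score. The single late library without a peak was at MI 24 h in 399 regions and at MI 72 h in 268. Each median is thus over a different set of regions, so the p-values below are a description and carry no call. Scores were higher in each MI 72 h library than in each MI 24 h library, by a margin that the design cannot call. The median score was 65.0, 64.7 and 63.5 in MI 24 h replicates 1 to 3, and 73.6, 69.9 and 65.9 in MI 72 h replicates 1 to 3. The groups did not overlap. The difference in means was 5.41 score units (64.4 ± 0.798 against 69.8 ± 3.85, SD, n = 3 each), with the smallest p that 3 against 3 allows (two-sided exact permutation p = 0.1, adjusted p = 0.267 over the 4 tests of the design). With the regions selected again without MI 72 h replicate 1, the difference was 2.95 units. Selected again with an equal number of top-scoring peaks, the regions gave 10.5 units with overlapping groups (exact permutation p = 0.2). The median over all autosomal peaks was also higher at MI 72 h, by 2.93 units, with overlapping ranges (exact permutation p = 0.3). Less that median, the values for late-gained regions were -6.91, -7.11 and -6.27 units in the MI 24 h libraries and -2.3, -5.48 and -5.08 units in the MI 72 h libraries. That difference was 2.48 units and again left no overlap (exact permutation p = 0.1). List length and score moved together here, and their part in the result was not tested.

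**Figure D4:**
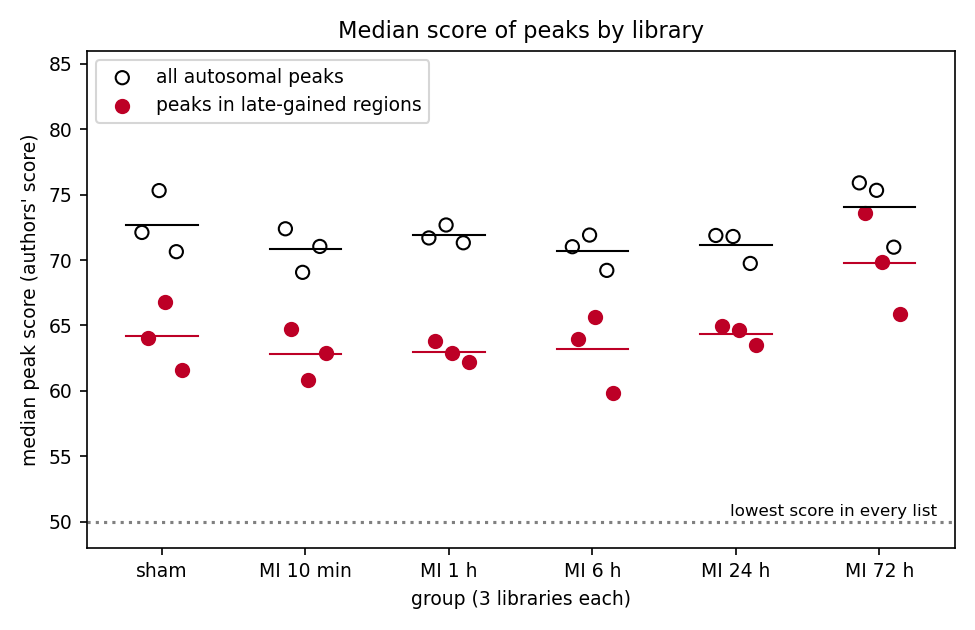
Median peak score of each library (vertical axis, the authors' score) for all autosomal peaks (open circles) and for peaks in late-gained regions (red), by group of 3 libraries; horizontal lines are group means. In every library the red point lies under the open one, and at MI 72 h the red points (65.9 to 73.6) lie above those at MI 24 h (63.5 to 65.0).

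The regions that met the rule most fully had a peak in all 6 late libraries and in 0 of the 12 others, and there were 4 of them. Ranked by mean late score, the first lay on chromosome 8 from 3678893 to 3680312. It lay within Trappc5, a subunit of the TRAPP complex of vesicle transport, and overlapped Fcer2a, the low-affinity IgE receptor of B cells. Its scores were 93.2, 57.3 and 93.0 at MI 24 h and 74.6, 62.7 and 76.5 at MI 72 h, so neither time was above the other. The next lay on chromosome 9 from 38313172 to 38314260, in no gene, 3441 bases from the olfactory receptor pseudogene Olfr897-ps1. There the scores were 69.4, 54.8 and 68.4 at MI 24 h and 92.1, 54.1 and 91.9 at MI 72 h. The third, on chromosome 2 from 27023737 to 27024859, lay within Slc2a6, a sugar transporter of the GLUT family. Its scores were 63.2, 65.9 and 59.1 at MI 24 h and 107, 63.1 and 58.0 at MI 72 h, with MI 72 h replicate 1 far above the rest. The fourth, on chromosome 2 from 144668479 to 144669704, lay within Dtd1, an editing enzyme that removes D-amino acids from transfer RNA. It was the weakest, with 60.4, 63.2 and 84.4 at MI 24 h and 50.7, 50.8 and 55.6 at MI 72 h. None of these 4 still met the rule with an equal number of top-scoring peaks, and only the region at Trappc5 did with a score of at least 60.

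The regions ranked 5 to 8 had stronger peaks and a peak in 1 of the 12 other libraries, and each still met the rule with an equal number of top-scoring peaks. Among regions with the same numbers of libraries the ranking puts high late scores first, so both traits follow in part from the ranking. Capzb encodes the beta subunit of the protein that caps actin filaments and anchors them at the Z-disc. The strongest of these regions lay within this gene, on chromosome 4 from 139238407 to 139239631. Its scores were 110.3, 82.5 and 68.0 at MI 24 h and 135, 132 and 103 at MI 72 h, a mean of 105 ± 26.7 (SD, n = 6). The only earlier peak there was in MI 10 min replicate 1, with a score of 62.9. A region within Ablim1, an actin-binding LIM protein, lay on chromosome 19 from 57092030 to 57093197. It scored 99.3, 97.6 and 59.7 at MI 24 h and 117, 116 and 105 at MI 72 h, with 57.1 in sham replicate 3. In Ablim1 every MI 72 h score exceeded every MI 24 h score, whereas in Capzb MI 72 h replicate 3 lay under MI 24 h replicate 1. On chromosome 12 from 17112205 to 17113180, 58920 bases from the potassium channel subunit gene Kcnf1, the scores were 117, 75.4 and 62.6 at MI 24 h and 92.2, 67.0 and 79.5 at MI 72 h. The 1 earlier peak, in MI 10 min replicate 1, scored 106 and so was as strong as the late ones. A region within Kalrn, which encodes the protein kalirin, lay on chromosome 16 from 33986870 to 33988042. It scored 85.7, 66.7 and 86.8 at MI 24 h and 80.7, 58.6 and 105 at MI 72 h, with 56.5 in sham replicate 2.

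**Figure D5:**
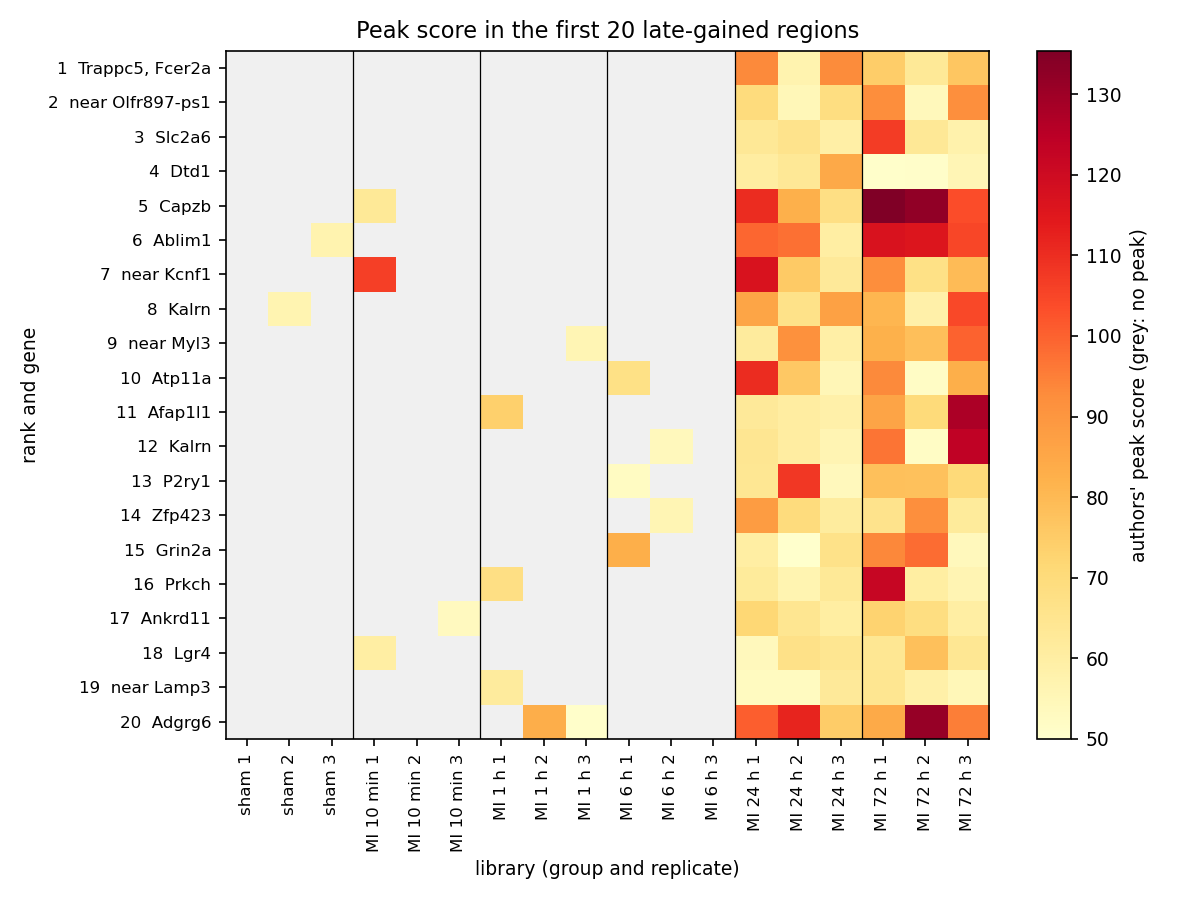
Peak score (colour) of the 20 highest-ranked late-gained regions (rows, with the gene they overlap or the nearest gene) in the 18 libraries (columns, by group and replicate); grey means that the library had no peak. The selection fixes the filled late columns. Within them Capzb, Ablim1 and Adgrg6 have the strongest scores, and the peaks outside them are scattered over 9 of the 12 other libraries.

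The regions ranked 9 to 19 had a peak in all 6 late libraries and in 1 other library. One lay 4890 bases from Myl3, the essential myosin light chain of the ventricle, on chromosome 9 from 110774692 to 110775693, with a mean late score of 78.8 ± 16.1 (SD, n = 6) and a peak in MI 1 h replicate 3. Another lay within P2ry1, an ADP receptor of platelets and vessels, on chromosome 3 from 61003488 to 61004717 (75.4 ± 18.4, SD, n = 6; also in MI 6 h replicate 1). A region within Zfp423, a zinc finger transcription factor of fat cell precursors, lay on chromosome 8 from 87858923 to 87860069 (73.2 ± 13.5, SD, n = 6). These 3 regions still met the rule with an equal number of top-scoring peaks. The remaining 8 did not. They lay within Atp11a (a phospholipid flippase), Afap1l1 (an actin filament-associated protein), Kalrn for a second time, Grin2a (a subunit of the NMDA receptor), Prkch (protein kinase C eta), Ankrd11 (a chromatin regulator) and Lgr4 (an R-spondin receptor), and near Lamp3 (a lysosomal membrane protein). Their mean late scores ran from 57.8 ± 5.04 near Lamp3 to 78.1 ± 22.4 in Atp11a (SD, n = 6). The region ranked 20, within the adhesion receptor gene Adgrg6 on chromosome 10 from 14468633 to 14469435, was strong in all late libraries (99.7 ± 20.1, SD, n = 6) and had peaks in MI 1 h replicates 2 and 3. It too met the rule with an equal number of top-scoring peaks, so that 8 of the first 20 did.

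Lists of genes of heart muscle and of infarct biology were then read for late-gained regions, counting a region within 2000 bases of the gene. Of 213 genes in 12 lists, 10 genes had 1 late-gained region each. These 10 were 0.534% of the 1871 autosomal merged regions at the listed genes, next to 0.529% of all autosomal regions, so the lists as a whole held about the background share. Regions of the opposite kind at the same genes numbered 5, which is 0.267% of these regions, next to 0.101% of all autosomal regions.

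Among 20 contractile genes, 2 had a late-gained region, of 134 merged regions there. In Csrp3, the muscle LIM protein of the Z-disc, the region (chromosome 7 from 48845620 to 48847174) scored 71.4 and 64.3 in MI 24 h replicates 2 and 3, and 108, 62.2 and 55.9 at MI 72 h. It also had peaks in sham replicates 1 and 2 (70.7 and 109) and in MI 10 min replicate 1 (70.8). These scores overlapped the late ones, and that of sham replicate 2 was the highest of all. In Mypn, which encodes myopalladin of the Z-disc and thin filament, the region (chromosome 10 from 63160229 to 63161335) scored 60.2 and 67.8 in MI 24 h replicates 2 and 3 and 58.6, 85.6 and 52.5 at MI 72 h. Sham replicate 2 had 60.6 there and MI 1 h replicate 2 had 63.7. In Mypn the sham and MI 1 h scores lay within the range of the late ones.

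Of 20 genes of ion handling, only Ryr2 had one, of 207 regions. Ryr2 is the channel that releases calcium from the sarcoplasmic reticulum. The region on chromosome 13 from 11737606 to 11738948 had a peak in all 6 late libraries, with 87.6, 79.1 and 68.4 at MI 24 h and 50.8, 81.1 and 77.7 at MI 72 h. Sham replicate 2 (50.7), MI 10 min replicate 1 (63.6) and MI 6 h replicate 3 (80.1) had it too. This was the only region outside the first 20 and named from the lists or from gene starts that still met the rule with an equal number of top-scoring peaks.

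Cytoskeleton and adhesion genes held 2 late-gained regions of 433, in Capzb (above) and in Utrn, the dystrophin relative utrophin. The Utrn region (chromosome 10 from 12573926 to 12575348) scored 58.5, 52.3 and 84.9 at MI 24 h, and 50.6 and 78.2 in MI 72 h replicates 1 and 3, with 62.2 in sham replicate 2. Of 426 regions at genes of cyclic nucleotide and kinase signalling, 2 were late-gained. In Prkce, protein kinase C epsilon, none of the 12 other libraries had a peak on chromosome 17 from 86194914 to 86196167. The late scores there were 60.4 and 65.4 in MI 24 h replicates 2 and 3 and 52.1, 70.5 and 69.8 at MI 72 h. In Gnas, the imprinted gene of the stimulatory G protein alpha subunit, the region (chromosome 2 from 174316368 to 174317809) scored 103, 93.3 and 55.4 at MI 24 h and 61.4 and 63.5 in MI 72 h replicates 2 and 3. MI 10 min replicate 1 (78.5) and MI 6 h replicate 1 (52.6) had peaks as well.

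Of the enzymes that write or erase DNA methylation, Tet2 had a late-gained region, 1 of 66 regions at 13 genes. Tet2 oxidizes methylated cytosine, a step towards its removal. None of the 12 other libraries had a peak in the region (chromosome 3 from 133485735 to 133486560). Its late scores were 70.1, 52.1 and 66.5 at MI 24 h, and 118 and 51.8 in MI 72 h replicates 2 and 3, so a single strong peak stood among weak ones. In Acadl, long-chain acyl-CoA dehydrogenase of fatty acid oxidation (1 of 117 regions at 20 fuel use genes), the region on chromosome 1 from 66834728 to 66835635 scored 62.9 and 54.8 in MI 24 h replicates 1 and 3 and 73.6, 77.2 and 95.5 at MI 72 h. Peaks of 62.0, 72.1 and 58.7 stood in MI 10 min replicate 1, MI 1 h replicate 1 and MI 6 h replicate 2. In Flt1, a VEGF receptor of endothelial cells (1 of 106 regions at 10 endothelial genes), the region on chromosome 5 from 147650908 to 147652150 scored 75.1, 55.2 and 50.5 at MI 24 h and 70.8 and 72.4 in MI 72 h replicates 1 and 2. It was also found in sham replicate 2 (60.5) and in MI 1 h replicates 1 and 3 (61.3 and 67.9).

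The other 5 lists held 0 late-gained regions. These were cardiac transcription factors (168 merged regions), extracellular matrix and fibrosis genes (94), leukocyte markers (42), inflammatory signalling genes (39) and fibroblast markers (39). At the background share, such lists would hold less than 1 late-gained region each. The defining markers of leukocytes, fibroblasts and endothelial cells, 6 genes each, had 0 late-gained regions among 10, 22 and 25 merged regions within the genes. Those of cardiomyocytes had 1 of 42, that in Ryr2.

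At gene starts, the regions under the printed sequences rested on 5 late libraries each. Hspb3 encodes a small heat shock protein of muscle, and its start lay wholly within a region on chromosome 13 from 113662793 to 113663965. Scores were 102 and 62.6 in MI 24 h replicates 2 and 3 and 130.1, 54.4 and 66.5 at MI 72 h, with 71.9 in sham replicate 2 and 56.9 in MI 1 h replicate 1. Mov10l1 encodes an RNA helicase of the piRNA pathway in male germ cells, and its start carried the most CpGs of the 16 windows. Its region (chromosome 15 from 88982048 to 88983601) scored 74.5, 50.8 and 50.3 at MI 24 h and 80.1 and 63.4 in MI 72 h replicates 1 and 3. Earlier peaks scored 56.4 in MI 1 h replicate 3 and 52.3 and 74.7 in MI 6 h replicates 1 and 2. At Hspb3 the peak in sham replicate 2 was as strong as most late ones, and the MI 1 h peak was weaker than most. At Mov10l1 the peak in MI 6 h replicate 2 was as strong as most late ones.

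The printed start of 1700093K21Rik lay in a region on chromosome 11 from 23519108 to 23520225. It had 0 peaks in sham, MI 10 min and MI 1 h, and peaks in MI 6 h replicates 1 and 2 (58.1 and 78.2). Late scores were 76.3 and 60.6 in MI 24 h replicates 2 and 3 and 81.8, 93.7 and 58.7 at MI 72 h. The start of 7420426K07Rik lay on chromosome 9 in a region from 98902804 to 98904009, with 1 earlier peak (60.7 in MI 1 h replicate 1) and late scores of 75.0 and 61.8 in MI 24 h replicates 2 and 3 and 93.1, 53.8 and 63.4 at MI 72 h. For the long noncoding RNA genes, the region at Gm41042 (chromosome 13 from 100996355 to 100997794) had a mean late score of 75.0 ± 15.2 (SD, n = 5). That at Gm38934 (chromosome 11 from 83810287 to 83811420) had 65.8 ± 5.00 (SD, n = 5). Each had 1 sham and 1 MI 10 min library with a peak. The other 7 genes with a start touched by a late-gained region were Nudt16l2, Slc2a5 (a fructose transporter, touched over 7 bases) and the long noncoding RNA genes 4930445E18Rik, 5033426O07Rik, Gm31373, Gm42061 and Gm46071. None of the 13 regions at gene starts met the rule with an equal number of top-scoring peaks or with a score of at least 60, and for Gm31373, 5033426O07Rik and Gm42061 the balance then leaned to the other libraries under at least 1 of these settings.

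In place and size, late-gained regions were set beside the other regions that 5 to 9 libraries held, although late-gained regions were held by more of them (a median of 8 libraries against 6). Their median width was 1279 bases, against 1251 for the 28138 other autosomal regions with a peak in 5 to 9 libraries, the range that the rule allows. All autosomal regions had a median of 1072 bases. A gene was overlapped by 504 late-gained regions (64.4%), against 61.7% of the regions found in 5 to 9 libraries and 60.4% of all. A protein-coding gene was overlapped by 54.7%, 51.5% and 50.5% in the same order, and a long noncoding RNA gene by 10.1%, 10.9% and 10.4%. A promoter window was touched by 1.66% of late-gained regions (13 regions), 2.03% of those in 5 to 9 libraries and 1.72% of all. The median distance from the middle of a late-gained region to the nearest gene start was 25296 bases (751 regions, chromosome 18 not used), against 27127 and 28112 bases. None of these differences was tested, since regions are not replicates, and each was small. Whether a region lies in an exon or an intron was not analysed here.

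Close neighbours were about as frequent as among other regions. Another merged region lay within 1000 bases of 101 late-gained regions (12.9%), against 13.4% of the other regions in 5 to 9 libraries and 14.0% of all autosomal regions. The late peaks of a region all shared at least 1 base in 757 of the 783, with a median shared length of 604 bases. Only 11 regions had more than 1 peak in a late library.

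Late-gained regions were spread over all 19 autosomes. They made up from 0.351% of the merged regions on chromosome 6 (29 regions) to 0.725% on chromosome 16 (39 regions), around the 0.529% of all autosomes. They overlapped 527 genes, of which 511 had 1 and 16 had 2. How often genes hold 2 regions among all merged regions is not given here, so these counts are only a description. The genes with 2 were picked out after their values were seen, and they include Kalrn and Ablim1 from the first 20, Rgs3, a regulator of G protein signalling, and Grk3, a kinase of G protein-coupled receptors. Of 1005 microRNA hairpins in the RefSeq table, 1 touched a late-gained region, that of Mir468. The share of hairpins touched by any merged region is not given here, so this count is only a description.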

How the data were processed

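MeDIP-seq was done on 18 heart libraries, paired-end, 1 mouse each. Reads were processed with Bowtie2 and MACS2 on build mm10, per the submitters' processing notes; their versions and options, and whether input DNA served as control, are not given in the sources used here. The authors deposited 1 peak list per library, and the deposited score of each peak has no stated scale; its lowest value was 50. Sequencing depth is unknown from these lists, so no counting interval is given. Lists held 34255 to 60653 peaks.

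Peaks were merged with Python 3.11.15 (pandas 2.3.3, numpy 2.4.6, scipy 1.17.1), and a library had a region when at least 1 of its peaks lay in it. Positions are counted from 1. Promoter windows on chromosome 18 were not used. Genes and promoter windows came from RefSeq for GRCm38.p6, the assembly that mm10 names. Gene starts fell in a merged region in 7.26% of cases, and in 10.5% and 10.2% with the table moved by 20000 bases to either side.

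Tests were two-sided exact permutation tests over libraries, with Benjamini-Hochberg adjustment over the 4 tests of the design. The 3 on shares of regions with a peak used values that the rule had used, so only their values are given. The test on scores used peaks that the rule had selected, so its p-values are a description. Its adjusted p also depends on the 3 tests on shares. The threshold was 0.05. The merging and the rule were tested on simulated data. Named were the first 20 regions, ranked by late libraries, other libraries and mean late score, the first 8 with all values, and every region at a listed gene or a gene start. Regions, gene lists and rules were chosen with earlier results of these data known. Alternatives were other overlaps, scores, list lengths and merging, and leaving out each library. Replicate numbers did not pair the libraries.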

Additional observations from a re-analysis of the deposited data

How the results depend on the processing

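Under each alternative the regions were selected again by the same rule. The number of late-gained regions was within 1.5 times of 783 when peaks were cut to 300 bases (807), when peaks up to 200 bases apart were merged (768), with X and Y included (803), with at least 50% of the region covered (655) and with a score of at least 60 (572). It was 294 with an equal number of top-scoring peaks and 44 with a peak in all 6 late and at most 2 other libraries, where the opposite kind numbered 7. A similar number does not mean the same regions. Of the 783, 529 still met the rule with at least 50% of the region covered, 172 with a score of at least 60 and 99 with an equal number of top-scoring peaks. Leaving out 1 library, with 1 late library still allowed to lack a peak, gave 901 to 1788 late-gained regions, and 213 to 335 of the opposite kind. The cap of 3 other libraries was kept when 1 of the other libraries was left out, so this loosened the rule as well. The rise above 783 thus does not measure how far the number depends on a single library. The highest values came from leaving out any of the 6 late libraries, where the rule then asks for 4 of 5 (1591, 1477 and 1788 without MI 24 h replicates 1, 2 and 3, and 1221, 1274 and 1619 without MI 72 h replicates 1, 2 and 3). With a peak needed in all 5 late libraries, chosen after seeing the data, the numbers were 243, 223 and 280 without MI 24 h replicates 1, 2 and 3, and 179, 195 and 242 without MI 72 h replicates 1, 2 and 3. For the score at MI 72 h against MI 24 h, exact permutation p ran from 0.1 to 0.25 over the alternatives run. With so few libraries p cannot fall under 0.1, so it could not have crossed the threshold in any of them. With 1 library left out that difference ran from 2.95 to 6.99 score units. The descriptive values ran from -13.0 to -1.40 percentage points for early MI less sham, from 0.0308 to 0.402 of the variance over the 4 groups and from 2.72 to 10.2 percentage points for the share at MI 72 h less MI 24 h. With an equal number of top-scoring peaks, early MI less sham was -0.831 percentage points. Per 1000 autosomal peaks, added after seeing the data, the difference in share between MI 72 h and MI 24 h turned to -0.984. At gene starts, the percentage of late less that of other libraries with a peak turned negative for Gm31373 (-25 with a score of at least 60 and with an equal number of peaks), 5033426O07Rik (-8.33 with 50% covered and with an equal number of peaks), Gm42061 (-8.33 with an equal number of peaks) and Slc2a5 (-16.7 with 50% covered). The cause was not tested.

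Samples with one replicate number did not deviate together: over 45 pairs from different groups the correlation of deviations from the group means averaged 0.00263, between -0.0624 and 0.0606. With the replicate number as a block (replicate block), early MI less sham was -7.73 percentage points and the share of variance over the 4 groups was 0.232. The values for MI 72 h against MI 24 h were 5.58 percentage points and 5.41 score units. For the score, exact permutation p was 0.25, and here too it could not have crossed the threshold. Without read counts, a region under the lowest score of 50 cannot be told from one with no methylated fragments.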

Other observations

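Outside the autosomes, 10 of 2267 merged regions on chromosome X and 10 of 1818 on chromosome Y met the same rule, and 2 and 0 were of the opposite kind. On the autosomes it was 783 of 148111 (0.529%), so X and Y held about the background share. Of the 783 autosomal regions, 64 met the rule under all 3 stricter settings (at least 50% of the region covered, a score of at least 60, and an equal number of top-scoring peaks); 32 of these were among the 116 with a peak in all 6 late libraries. Below the first 20 they include regions overlapping Lrig1, a membrane protein that restrains growth factor receptors (rank 22), Slc50a1, a sugar transporter (rank 24), Mapre3, a protein of microtubule ends (rank 32), Alox5ap, which leukotriene synthesis requires (rank 45), and Gch1, the first enzyme of tetrahydrobiopterin synthesis (rank 64). These 5 were picked out after their values were seen and carry no test.

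Of the 783 regions, 97 had a peak in none of the 9 early MI libraries, and 301 had no peak in sham. A peak in all 3 libraries was found in 6 regions for sham, 1 for MI 10 min, 1 for MI 1 h and 0 for MI 6 h. The rule limits all of these counts, and sham replicate 2 had the longest list outside the late libraries. Sham also has 3 libraries against 9 of early MI. The matching shares over all autosomal regions are not given here, so the counts do not set the groups apart and carry no test.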
